A study of Mus musculus with 80 samples.

Results

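The comparison of time of day in fasted RiboTag RNA set 5 libraries taken at ZT14 against 5 taken at ZT2. These are 10 of the 80 libraries of the series and were chosen by their labels, with earlier results of these data known. ZT counts the hours from lights on, so that ZT14 lies early in the dark phase, when mice feed, and ZT2 early in the light phase. All 10 libraries came from mice of the genotype AGRP-Cre;RiboTag after what the labels call an effective fast of 24 h. They were set beside RiboTag libraries of the same genotype from ad libitum fed mice (4 at ZT14 and 3 at ZT2) and beside GFP-positive cells sorted from slices of the arcuate nucleus of fasted NPY-GFP mice (8 at ZT14 and 7 at ZT2). The labels give neither age, sex nor strain background, and do not say whether mice were pooled or whether a replicate number marks a separate mouse. The spread behind every p-value is thus that of libraries, and may be technical.

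The series as a whole examined AgRP neurons under several feeding states, after leptin, without the clock gene Bmal1 (Arntl) and at several times of day. In RiboTag mice, Cre recombinase switches on an epitope-tagged copy of the ribosomal protein Rpl22, and the tagged ribosomes with the mRNAs on them are precipitated from tissue lysate. Here Cre was driven by Agrp, so that a cell that used the Agrp promoter at any time may carry the tag. The value of a gene is its normalised count, the count of reads divided by a size factor for the library. Differences are ZT14 minus ZT2 on log2(normalised count + 1), with the standard error after ±, and levels of different genes cannot be compared because the values are not scaled to gene length.

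AgRP neurons of the arcuate nucleus make the peptides AgRP and NPY and the transmitter GABA, are active in hunger and drive feeding. The circadian clock of each cell is a loop in which BMAL1 (Arntl) and CLOCK bind E-boxes and switch on Per, Cry and Nr1d genes, whose products then hold the activators back: PER and CRY proteins block them, and the NR1D receptors repress Arntl. The D-box factors DBP, TEF and HLF form an output arm of the same loop.

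E-boxes were looked up in the promoters of the clock genes, because the comparison turns on whether the targets of the loop differed between the hours. In the RefSeq promoters of the mouse build GRCm38.p6, the letters CACGTG, which read the same on both strands, stood in the 250 bases before the start in 9 of the 33 clock and clock output genes with a promoter (27.3%), against 1978 of 32851 promoters of all genes (6.02%). The D-box TTATGTAA, on either strand and not overlapping the E-box letters, stood in 2 of the 33 (6.06%) and in 0.819% of all. The promoters of Per1, Ciart (listed in the files as Gm129) and Tef are shown with CACGTG in capitals, as examples with 1, 3 and 1 copies. A clock gene was counted if any of its promoters held the letters, whereas the shares over all genes count each promoter singly. The shares are thus not of like units, and genes with several promoters had more chances on the clock side. A match is a description of the letters and shows no binding.
Per1, chr11:69098699-69098948, plus strand: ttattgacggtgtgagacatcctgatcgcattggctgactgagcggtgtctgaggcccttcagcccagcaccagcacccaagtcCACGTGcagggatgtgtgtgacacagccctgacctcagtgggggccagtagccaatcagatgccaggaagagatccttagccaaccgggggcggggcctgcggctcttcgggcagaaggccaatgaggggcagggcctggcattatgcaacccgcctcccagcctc
Ciart, chr3:95882229-95882478, minus strand: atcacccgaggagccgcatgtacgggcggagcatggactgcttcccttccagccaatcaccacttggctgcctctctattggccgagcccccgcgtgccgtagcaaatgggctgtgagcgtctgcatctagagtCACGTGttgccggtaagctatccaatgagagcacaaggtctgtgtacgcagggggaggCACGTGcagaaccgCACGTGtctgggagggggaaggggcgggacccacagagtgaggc
Tef, chr15:81802423-81802672, plus strand: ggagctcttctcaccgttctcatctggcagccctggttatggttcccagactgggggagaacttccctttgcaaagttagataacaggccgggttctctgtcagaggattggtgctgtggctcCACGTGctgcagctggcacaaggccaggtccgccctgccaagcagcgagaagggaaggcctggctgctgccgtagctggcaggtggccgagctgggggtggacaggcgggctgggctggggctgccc

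Recovered from the values, the reads per library were 12.9 to 21.6 M at ZT14 and 11.4 to 22.8 M at ZT2. Genes above 0 numbered 14905 to 17378. No difference between the hours passed for reads, genes above 0 or the ribosomal RNA transcript Rn45s, taken on the log2 scale (exact permutation tests, two-sided, p = 0.849, 0.381 and 0.651, adjusted p = 0.849 for each of the 3, and 0.00794 the smallest p that the 252 arrangements allow). The peptide transcripts of the labelled cell type were present in every library: Agrp had 2909.9 to 1488869 and Npy 13123 to 2761625 normalised counts. Markers of glia, microglia and vessels were also above 0 in all 10 libraries, and no unprecipitated input was analysed here. In such bulk samples, fewer cells of a type and less RNA per cell cannot be told apart.

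Several libraries stood apart. The library labelled ZT2 replicate 3 summed to 42.5 M normalised counts, against 12.3 to 22.2 M in the others, and its median Spearman correlation with the other fasted libraries over all genes was 0.804. Those of ZT14 replicate 3 and ZT2 replicate 5 were 0.852 and 0.870, against 0.912 to 0.954 in the remaining 7. In ZT2 replicate 5, Agrp and Npy together took 19.2% of the summed values, against 0.131% to 3.59% elsewhere. ZT2 replicates 2 and 4 were marked by several genes of the anterior pituitary, which were looked at after the data had been seen. Gh, which encodes growth hormone, had 130559 and 125428 normalised counts in that pair of libraries, and at most 353 in the other 8. Prl, which encodes prolactin, had 17799 and 20339 in the pair and at most 166 in the other 8. The pituitary transcription factor gene Pou1f1 had 27.99 and 33.88, against 0 to 2.28. Fshb, Lhb and Ghrhr were also highest in the pair. The pituitary hormone genes Cga and Tshb were not, and both were highest in ZT2 replicate 3. Cga had 6482 there, against 1577 and 2528 in the pair, and Tshb had 206, against 38.6 and 79.7. Signal of such genes was thus not confined to the pair.

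The clock genes went against the label in a pair of libraries. Of the genes on the clock lists, 6 differed between the hours in the fasted sorted cells (Arntl, Gm129, Nr1d2, Per2, Per3 and Coq10b). For each fasted RiboTag library, it was counted at how many of these 6 genes its value lay nearer to the mean of the sorted cells at ZT14 than to that at ZT2. The counts were 0, 5, 4, 4 and 4 in ZT14 replicates 1 to 5, and 5, 1, 1, 0 and 2 in ZT2 replicates 1 to 5. At Coq10b all 10 libraries lay nearer to sorted ZT2 cells, so that only the other 5 genes set libraries apart. At these 5, the library labelled ZT14 replicate 1 was nearer to sorted ZT2 cells throughout, and the library labelled ZT2 replicate 1 nearer to sorted ZT14 cells throughout. The labels were kept in every test, and values without these libraries are given as a description.

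Across all genes, the fasted RiboTag libraries showed no gene that passed the test between the hours. With limma's test and Benjamini-Hochberg adjustment over 15444 genes, 0 had an adjusted p under 0.05 (0.0%), and the smallest adjusted p was 0.336, for Tmsb10. Without adjustment, 1381 genes had p under 0.05 (8.94%), of which 539 were higher at ZT14 (3.49%) and 842 lower (5.45%). In 60 of the 15444 genes (0.389%) the groups did not overlap, with all ZT14 values above all ZT2 values in 29 (0.188%) and below them in 31 (0.201%). If the labels were arbitrary, a gene would separate fully in either direction with a probability of 0.00794, which is above the share found. Separation in single genes is thus given as a description. The quasi-likelihood test of edgeR on the recovered reads also called 0 genes (1679 with unadjusted p under 0.05). DESeq2 called 529, of which 20 were higher and 509 lower at ZT14, and a fit that took its spread from all 50 RiboTag and NPY-GFP libraries called 305, of which 44 were higher and 261 lower.

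The median difference over all genes was 0.07, with quartiles of -0.33 and 0.43. The median standard error was 0.463 and the median 95% confidence interval reached 0.975 to each side. This width holds for 1 gene without adjustment, and differences under it mostly did not reach an unadjusted p of 0.05. After adjustment, differences well above it did not pass either, such as that of Tmsb10 (-2.10, adjusted p = 0.336, limma). Without the 3 least similar libraries (ZT14 replicate 3 and ZT2 replicates 3 and 5), 1 gene was called (Zfp458, 3.59, adjusted p = 0.0477, limma). Without ZT14 replicate 1 and ZT2 replicate 1, the calls were Rev3l and Tmsb10 (both adjusted p = 0.0168), and without all 5 there were 141, 67 higher and 74 lower. In that last comparison the only ZT2 libraries were replicates 2 and 4, the pair with high pituitary genes. Without that pair, 0 genes were called (1937 with unadjusted p under 0.05).

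**Figure D1:**
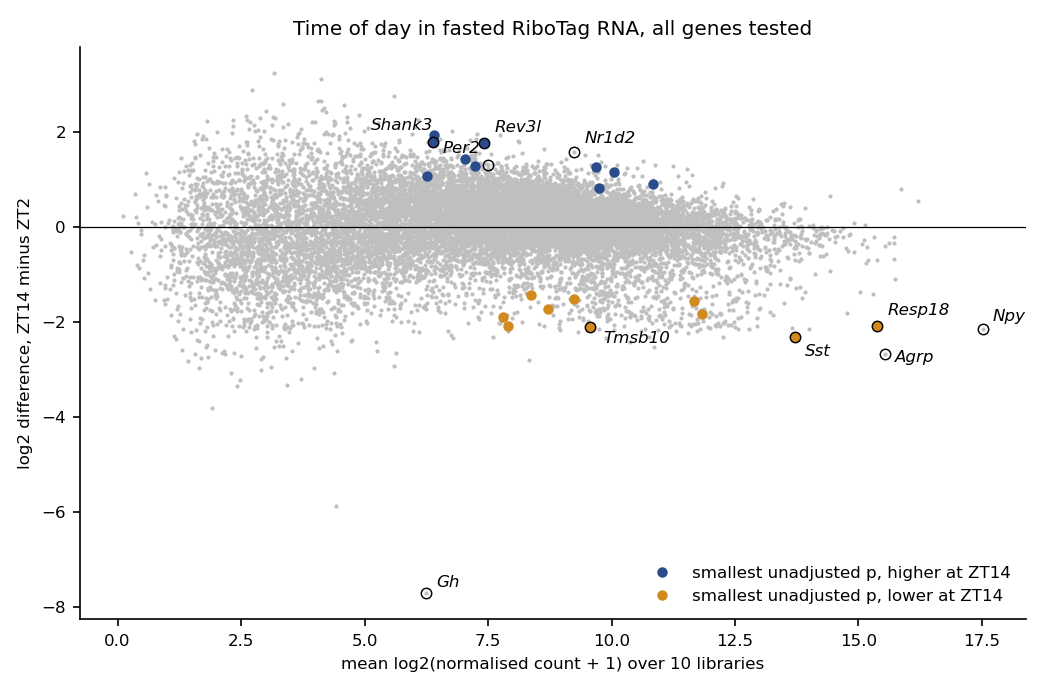
Log2 difference, ZT14 minus ZT2, against the mean log2(normalised count + 1) over the 10 fasted RiboTag libraries for the 15444 genes tested (grey), with the 10 genes of smallest unadjusted p in each direction in colour and other genes of the text circled. Gh lies lowest of the labelled genes, the coloured genes reach from -2.33 (Sst) to 1.93 (Atad2b), and no gene passed the adjusted threshold.

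Among the repressors of the clock, Nr1d2 and Per1 had unadjusted p under 0.05 and none passed after adjustment. Nr1d2, which encodes a nuclear receptor that represses Arntl, had 340.2, 1883, 549.8, 1999.95 and 1797 normalised counts in ZT14 libraries, against 1703, 151, 476, 329 and 125 in ZT2 libraries. At ZT14 replicate 1 was the lowest and at ZT2 replicate 1 by far the highest, so that the groups overlapped. The difference was 1.59 ± 0.602 (unadjusted p = 0.0169, adjusted p = 0.531, limma). Its paralog Nr1d1 gave 0.23 ± 0.368, and turned to -0.03 without ZT14 replicate 4.

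The Period genes encode the repressors of the loop. Per1 had 146, 302, 213, 623 and 690.5 normalised counts at ZT14 and 345, 103, 75.5, 247 and 122 at ZT2. Per2 had 141, 756, 128, 314 and 425 at ZT14 and 759, 94.6, 20.3, 139.9 and 92.7 at ZT2. In both genes ZT2 replicate 1 was the highest of its group, and for Per2 it was the highest of all 10. The differences were 1.12 ± 0.456 for Per1 (unadjusted p = 0.0243) and 1.30 ± 0.686 for Per2 (unadjusted p = 0.0747), and neither passed after adjustment (adjusted p = 0.531 and 0.593, limma). Per3 differed by 0.25 ± 0.442, and this value changed sign without ZT2 replicates 2 and 4. The Cry genes, which encode the partners of the PER proteins, gave 0.18 ± 0.286 for Cry1 and 0.38 ± 0.383 for Cry2, and Cry1 was -0.11 without the 3 least similar libraries.

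Arntl, the activator that the series deleted in other mice, had 1031, 403, 296, 447 and 333 normalised counts at ZT14 and 374, 1127, 488, 1105 and 561 at ZT2. Apart from the libraries labelled replicate 1, every ZT14 value lay under every ZT2 value. Arntl was among the genes by which these libraries were set apart, so that this separation carries no test. The difference over all libraries was -0.56 ± 0.358 (unadjusted p = 0.136, adjusted p = 0.656, limma). Gm129 (Ciart), a repressor of the same activators, had 46.2, 466, 678, 412 and 268 at ZT14 and 464, 34.6, 558, 25.7 and 100.8 at ZT2, a difference of 1.21 ± 0.805 (adjusted p = 0.669). Without ZT2 replicates 2 and 4, its difference was -0.099.

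**Figure D2:**
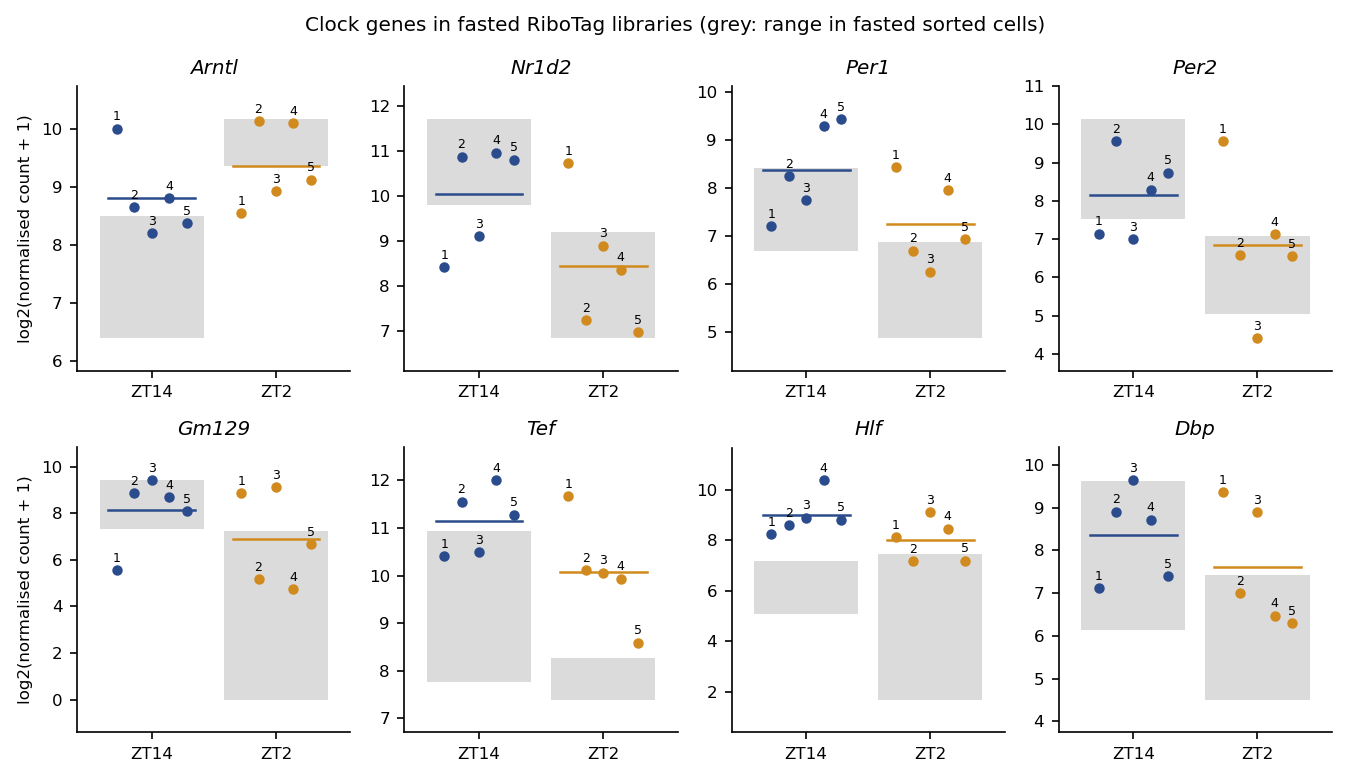
Log2(normalised count + 1) of 8 clock genes in each fasted RiboTag library at ZT14 (blue) and ZT2 (orange), numbered by replicate, with lines at the means and grey bands for the range in fasted sorted NPY-GFP cells at the same hour. In Arntl, Nr1d2 and Per2 the points numbered 1 lie on the side of the other hour's points.

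Among the D-box factors, Tef had 1355, 3008, 1435, 4093 and 2481 normalised counts at ZT14 and 3247, 1102, 1069, 977 and 384 at ZT2. All ZT14 libraries lay above every ZT2 library other than replicate 1. Its difference was 1.07 ± 0.422 (unadjusted p = 0.0207), that of Hlf 0.97 ± 0.412 (unadjusted p = 0.0304), and that of the clock-controlled cell cycle kinase gene Wee1 0.79 ± 0.312 (unadjusted p = 0.0211), all with adjusted p = 0.531 by limma. Dbp, with 0.75 ± 0.627, was further from the threshold (unadjusted p = 0.245).

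Of the 20 core clock genes tested, 14 were higher at ZT14 and 2 of these had unadjusted p under 0.05, with a median difference of 0.28. Of the 20 clock output genes, 19 were higher at ZT14 and 3 had unadjusted p under 0.05, with a median of 0.54. Over all genes, 55.2% were higher and 3.49% were higher with unadjusted p under 0.05. No member of either list passed after adjustment, none had groups that did not overlap, and both medians stayed above 0 in each of the 27 other settings (0.13 to 0.56 and 0.42 to 1.08).

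The sorted cells of fasted NPY-GFP mice gave the same contrast by another preparation. There 24 of 16238 genes passed (0.148%), and 1288 had unadjusted p under 0.05 (7.93%). Arntl differed by -1.88, Nr1d2 by 2.71, Per2 by 2.21 and Gm129 by 4.74 (adjusted p = 6.28e-05, 0.000546, 0.0261 and 0.000236, limma). In the sorted cells, Nr1d2 ranged from 898 to 3364 normalised counts at ZT14 and from 114 to 587 at ZT2, without overlap. Arntl ranged there from 83.5 to 361 at ZT14 and from 659.9 to 1159 at ZT2, again without overlap.

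No clock gene passed the test of the difference between the preparations, fasted RiboTag minus sorted cells. It was 1.32 for Arntl (unadjusted p = 0.0024) and -3.53 for Gm129 (unadjusted p = 0.003), both with adjusted p = 0.603 by limma. With the libraries labelled ZT14 replicate 1 and ZT2 replicate 1 left out, the RiboTag differences were -1.06 for Arntl, 2.57 for Nr1d2, 2.23 for Per2, 2.34 for Gm129 and 1.71 for Per1. These libraries were picked by some of the same genes, so that the values had to move apart and carry no test.

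**Figure D3:**
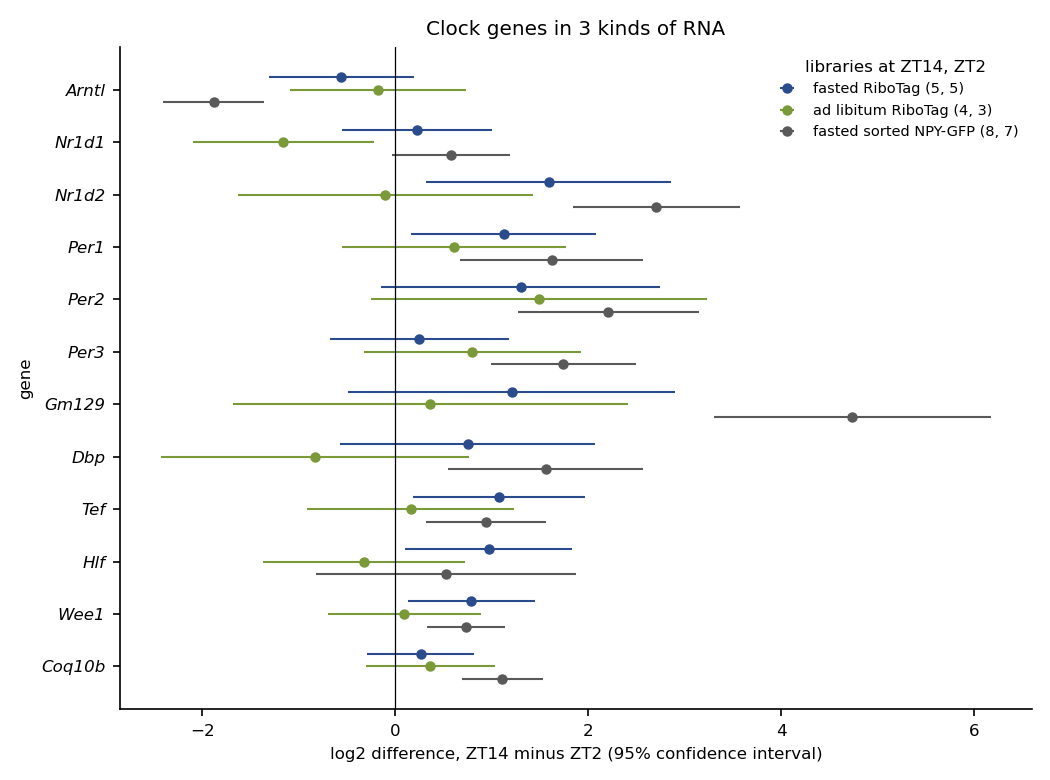
Log2 difference, ZT14 minus ZT2, of 12 clock genes with its 95% confidence interval in fasted RiboTag (5 and 5 libraries), ad libitum RiboTag (4 and 3) and fasted sorted NPY-GFP cells (8 and 7). Arntl lies at -0.56 in fasted RiboTag and at -1.88 in sorted cells, and Gm129 at 1.21 and 4.74.

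Of the 24 genes that passed in the sorted cells, 23 were tested in fasted RiboTag, and 20 of these had the same sign there. Over all 15444 genes the share with the same sign was 62.3%. The 17 that were higher at ZT14 in sorted cells had a median RiboTag difference of 0.54, and the 6 that were lower had -0.26. The members with unadjusted p under 0.05 in RiboTag were Nr1d2, Fosl2, Mat2a and Prkx. Mat2a, which encodes the enzyme that makes S-adenosylmethionine outside the liver, differed by 0.54 in RiboTag and 0.59 in sorted cells. Npy1r, a receptor for NPY, differed by 0.86 ± 0.522 in RiboTag (unadjusted p = 0.116) and by 2.67 in sorted cells. Stac2 went the other way, with 0.45 ± 0.657 in RiboTag and -3.01 in sorted cells.

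The peptides that define AgRP neurons were lower at ZT14 by these values, without passing the test. Agrp had 30537, 16956, 51208, 2909.9 and 30639 normalised counts in ZT14 libraries, against 40354, 61839, 52946, 124349 and 1488869 in ZT2 libraries. Npy had 140465, 81212, 250190, 13123 and 147272 at ZT14, against 129128, 224009, 306484, 388895 and 2761625 at ZT2. ZT14 replicate 4 was the lowest and ZT2 replicate 5 the highest of the 10 for both, and the groups overlapped. The differences were -2.67 ± 0.859 for Agrp (unadjusted p = 0.00625) and -2.15 ± 0.798 for Npy (unadjusted p = 0.015), both with adjusted p = 0.531 by limma. Without ZT2 replicate 5 they were -1.76 and -1.45.

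DESeq2 called both peptides (adjusted p = 0.00201 for Agrp and 0.0134 for Npy), and edgeR called neither. Of the 16 genes tested on the AgRP list, these peptides included, 7 were higher and 9 lower at ZT14, 2 of the lower ones with unadjusted p under 0.05, and the median was -0.02. The AgRP list was uneven between libraries. As a median over its genes, it lay at -2.42 from the mean of the 10 libraries in ZT2 replicate 3. It lay at -1.30 and -1.21 in ZT14 replicates 4 and 3, and at 0.15 to 0.93 in the remaining libraries. The leptin receptor gene Lepr had 62.3 to 466 normalised counts at ZT14 and 125 to 368 at ZT2. Socs3, a gene that leptin signalling switches on, had 40.3 to 229.9 at ZT14 and 23.2 to 284 at ZT2. Both genes overlapped widely between the hours.

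Several peptides of other neurons were also lower at ZT14 in value, and none passed the test with limma. Sst, which encodes somatostatin, had 10714, 5202, 8778, 2406 and 6451 normalised counts at ZT14, against 10937, 11692, 64315, 24483 and 119457 at ZT2. Every ZT14 value lay under every ZT2 value, as in 0.201% of all genes, though the closest values were 10714 and 10937. The difference was -2.33 ± 0.564 (unadjusted p = 0.000671). Nmb, which encodes neuromedin B, gave -2.09 ± 0.506, also without overlap, Pomc -2.54 ± 0.785, the galanin gene Gal -1.80 ± 0.697 and Cartpt -1.49 ± 0.531, all with adjusted p = 0.531 by limma.

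Of the 20 markers of other hypothalamic neurons, 17 were lower at ZT14, 2 of them with unadjusted p under 0.05, and the median was -0.55. Their summed level was 9811 to 27203 at ZT14 and 18875 to 228584 at ZT2. DESeq2 called 2 of the 20, both lower, against 509 lower of 15251 genes in all. The highest sums were those of ZT2 replicates 3 and 5, and without the 5 libraries named above the median was 0.64. On the POMC neuron list, 4 of 7 genes were higher and 3 lower at ZT14, with a median of 0.14. The 3 lower ones had unadjusted p under 0.05, and DESeq2 called 3 of the 7, all lower. The smallest p of the list was that of Ttr (-2.42 ± 0.734, unadjusted p = 0.00406, limma). Ttr was not among the markers set to define POMC neurons, which were Pomc, Cartpt, Tbx3 and Prdm12. For Pomc, ZT2 replicates 2 and 4 had 14302 and 14995 normalised counts, and these are the libraries with high Gh and Prl. Pomc is also made by the pituitary, and its difference without that pair was -1.40. The part of the pituitary genes and of the other neurons in these values was not tested.

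Resp18, which encodes a protein of the secretory pathway of endocrine and nerve cells, was among the genes of smallest unadjusted p that were lower at ZT14. It had 24707, 20131, 33968, 9628 and 23251 normalised counts at ZT14 and 39214, 57751, 186493, 57281 and 213639 at ZT2. No ZT14 library reached the lowest ZT2 library, as in 0.201% of all genes. The difference was -2.08 ± 0.462 (adjusted p = 0.531, limma). Tmsb10, which encodes an actin-binding thymosin, had the smallest p of all genes, with 299, 388, 638, 257 and 348 at ZT14 and 586, 1353, 3218, 1861 and 2021 at ZT2. Its values overlapped only through ZT14 replicate 3 and ZT2 replicate 1, and its difference was -2.10 ± 0.366 (unadjusted p = 2.18e-05, adjusted p = 0.336). Without ZT2 replicate 1, Tmsb10 was called (-2.45, adjusted p = 0.00412), as were Rev3l (2.33, adjusted p = 0.00412) and Ceacam10 (lower at ZT14, adjusted p = 0.0196).

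Others of the genes with the smallest p in this direction were Ssr4, a subunit of the translocon-associated complex of the endoplasmic reticulum (-1.84 ± 0.455), Fkbp11, a prolyl isomerase of the secretory pathway (-1.73), Nenf, which encodes the secreted protein neudesin (-1.57), the mitochondrial Chchd7 (-1.51 ± 0.372, without overlap), the DNA repair gene Xpa (-1.43) and the histone gene Hist3h2ba (-1.89). Each had adjusted p = 0.531. Of the 36 secretory pathway genes, 21 were lower at ZT14, 5 with unadjusted p under 0.05, and the median was -0.19. Of 17 genes for peptide processing and granules, 14 were lower, 3 with unadjusted p under 0.05, and the median was -0.35, with Scg5 at -0.85 and Pcsk1n at -1.23.

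Genes for ribosomes and for oxidative phosphorylation gave the lowest list medians. Of 74 genes for cytosolic ribosomal proteins, 73 were lower at ZT14, 57 with unadjusted p under 0.05, against 5.45% of all genes, and the median was -1.57. Of 74 nuclear genes for the respiratory chain, 73 were lower, 49 with unadjusted p under 0.05, and the median was -1.79. The 45 genes for mitochondrial ribosomal proteins had a median of -0.82, with all 45 lower and 19 of them with unadjusted p under 0.05. The 31 proteasome genes had -0.50, with 30 lower and 6 of them with unadjusted p under 0.05. No member of these lists passed after adjustment with limma. DESeq2 called 50 of the 74 ribosomal genes, 53 of the 74 respiratory chain genes, 13 of the 45 mitochondrial ribosomal genes and 3 of the 31 proteasome genes, all lower at ZT14. The fit over all 50 libraries called 32, 33, 5 and 1 in the same order, again all lower. Over all genes, DESeq2 called 509 of 15251 lower at ZT14, and the fit over 50 libraries called 261 of 16238 lower.

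The values of single genes were uneven between libraries. Rpl35a, a protein of the large ribosomal subunit, had 299, 270.2, 1031, 264 and 302 normalised counts at ZT14 and 605, 549, 4673, 855 and 5007 at ZT2. Ndufb2, a subunit of respiratory complex I, had 1301, 1145, 3793, 817 and 1129.9 at ZT14 and 1907, 2456, 26560.2, 4166 and 22454 at ZT2. In both, 4 of the 5 ZT14 libraries lay under all ZT2 libraries, and ZT2 replicates 3 and 5 were several times higher than the rest. The differences were -1.99 ± 0.576 for Rpl35a and -2.22 ± 0.62 for Ndufb2, with adjusted p = 0.531 for both by limma. Cox8a, a subunit of cytochrome c oxidase, followed with -2.10 ± 0.625.

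Over the whole lists, ZT2 replicates 3 and 5 lay 2.88 and 2.07 above the mean of the 10 libraries for ribosomal proteins and 3.72 and 2.22 above it for oxidative phosphorylation, as medians over the genes. The other 8 libraries lay between -1.49 and 0.54. The summed level of the ribosomal genes was 50089 to 142736 at ZT14 and 66795 to 701112 at ZT2. Without ZT14 replicate 3 and ZT2 replicates 3 and 5, the medians were -0.60 and -0.63, and their sign was the same in all 27 settings. In ad libitum RiboTag the medians were 0.09 and -0.12, and in fasted sorted cells -0.18 and -0.17. ZT2 replicate 3 also had the highest markers of microglia and glia. A list of 9 transcripts kept as signs of RNA and library quality (Rpl22, Gapdh, Actb, Malat1 and others) had a median difference of -0.54, with 7 lower at ZT14 and 0 with unadjusted p under 0.05. It lay 1.64 and 1.21 above the mean of the 10 libraries in ZT2 replicates 3 and 5, and at most 0.35 above it in the other 8, and its median was -0.03 without the 3 least similar libraries and 0.49 without all 5. Its summed level was 50983 to 90272 at ZT14 and 29504 to 400421 at ZT2. The part of those cells or of RNA quality in the medians was not tested.

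**Figure D4:**
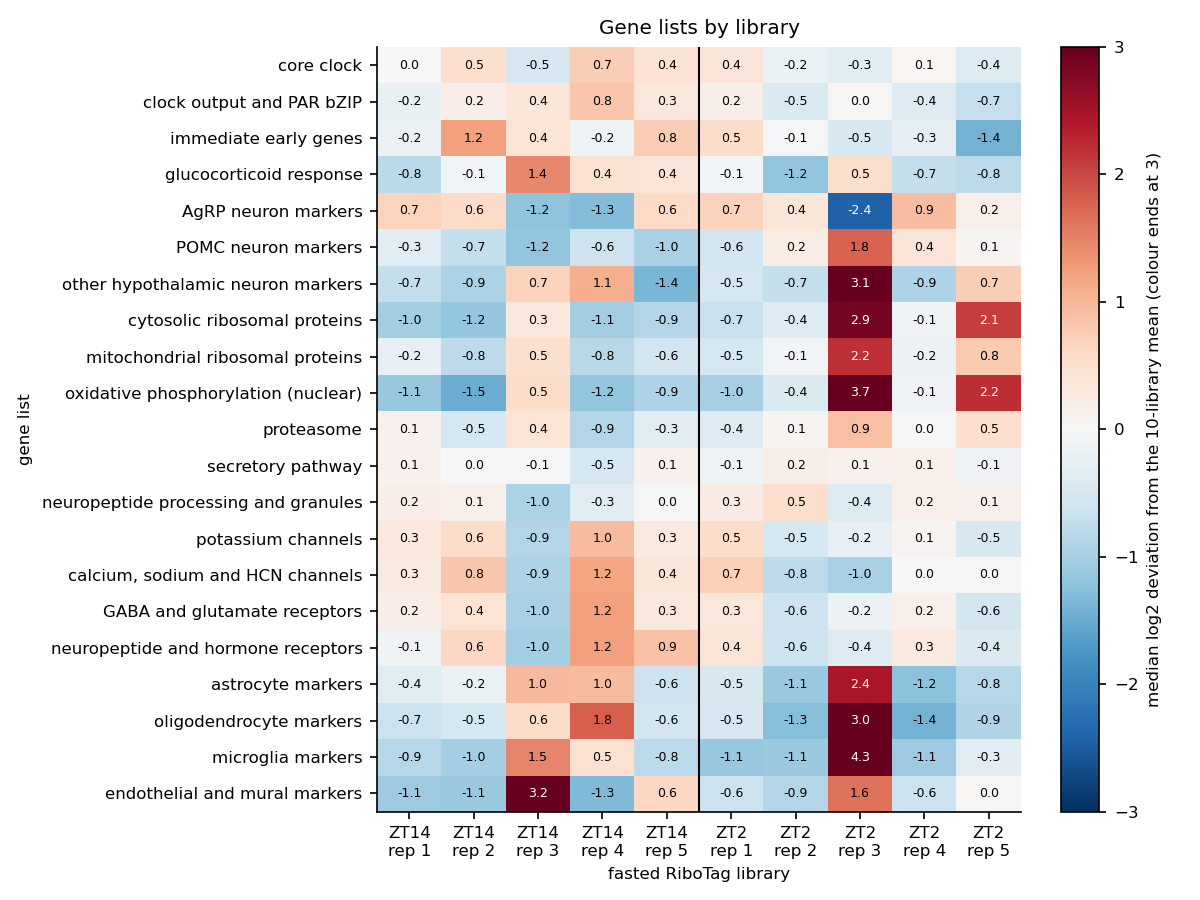
Median log2 deviation of each gene list from the mean of the 10 fasted libraries, by library, with ZT14 libraries on the left, ZT2 libraries on the right and the number in each cell. ZT2 replicate 3 reaches 3.72 for oxidative phosphorylation and 4.29 for microglia markers, and ZT14 replicate 3 reaches 3.19 for endothelial and mural markers.

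Transcript length moved with the difference. Across the 15245 genes with a GENCODE exonic length, the Spearman correlation between length and the ZT14 minus ZT2 difference was 0.44, a description over genes of the same 10 libraries. The median difference was -1.24 in the 392 genes under 1 kb and 0.45 in the 847 genes of 12 kb and over. The libraries' own correlations of deviation with length were 0.139, 0.489, -0.306, 0.336 and 0.401 at ZT14 and 0.373, -0.155, -0.441, 0.166 and -0.231 at ZT2. Replicate 3 was the lowest at both hours.

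In ad libitum RiboTag the correlation of length with the difference was 0.11 and in fasted sorted cells 0.23. With the length trend taken out of each library, an alternative picked with the data in view, the correlation was -0.03, the ribosomal median -1.03 and the oxidative phosphorylation median -0.88, and 0 genes were called (1112 with unadjusted p under 0.05). The part of transcript length in the differences of single genes was not tested.

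**Figure D5:**
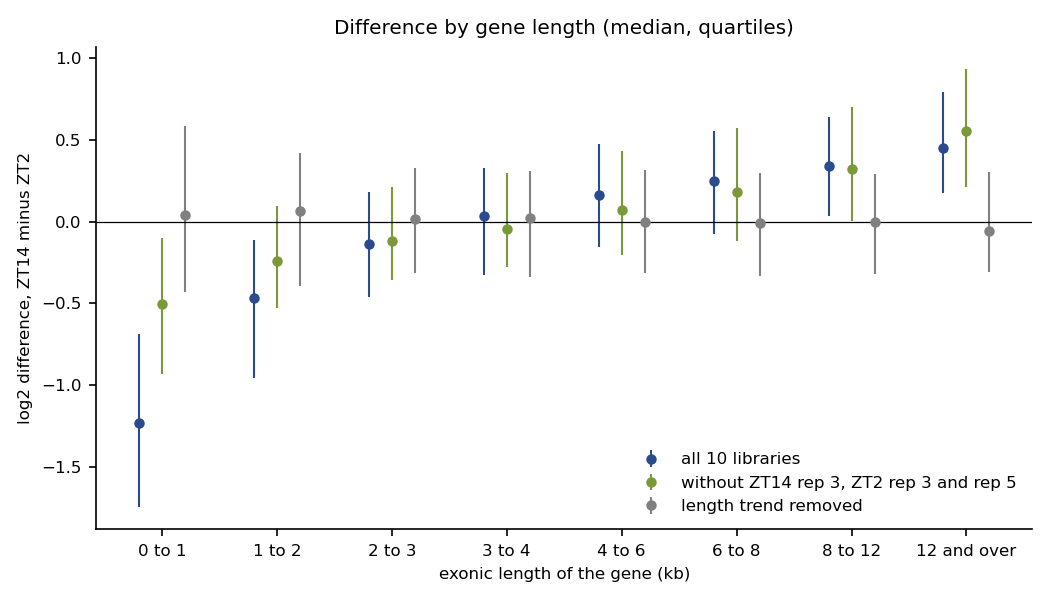
Median log2 difference, ZT14 minus ZT2, with quartiles, by exonic length of the gene, for all 10 fasted libraries, without the 3 least similar libraries and with the length trend removed. The median over all 10 libraries runs from -1.24 in the shortest genes to 0.45 in the longest, and with the trend removed it lies near 0 in every bin.

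Among the genes higher at ZT14, Shank3, which encodes a scaffold of excitatory synapses, stood first by p. It had 93.4, 109, 195, 251 and 177 normalised counts at ZT14 and 105, 30.7, 23.2, 71.5 and 30.9 at ZT2. Of the ZT14 libraries 4 lay above all ZT2 libraries, and replicate 1 lay below ZT2 replicate 1. The difference was 1.78 ± 0.447 (unadjusted p = 0.000896, adjusted p = 0.531, limma). Rev3l, the catalytic subunit of a DNA polymerase that copies past damage, had 301, 292, 366, 329 and 295 at ZT14 and 429, 38.6, 58.1, 94.1 and 69.9 at ZT2. Here ZT2 replicate 1 was the highest of all 10 and the other 4 ZT2 libraries were well under the ZT14 ones, with a difference of 1.77 ± 0.461 over all.

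In 29 of the 15444 genes (0.188%) every ZT14 value was above every ZT2 value, no more than arbitrary labels would give, and 4 of them are named here. Slitrk4, a synaptic adhesion protein, had 159.6, 142, 212, 465 and 199 at ZT14 and 119, 68.0, 131, 89.1 and 32.5 at ZT2, a difference of 1.42 ± 0.39. Mcl1, which encodes a protein that holds back apoptosis, had 836, 1132, 1373, 1062 and 1374 at ZT14 and 789, 514, 720.2, 747 and 493 at ZT2, a difference of 0.83 ± 0.235. Irs1, the insulin receptor substrate, gave 1.42 ± 0.598, and its gap came down to 38.6 at ZT14 against 37.2 at ZT2. Ankdd1b gave 1.08. None passed after adjustment (adjusted p = 0.531 for all, limma).

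Others named by the smallest p were the protein kinase C genes Prkcc (1.26) and Prkcb (0.91), the chromatin gene Atad2b (1.93) and the spectrin gene Spna2 (1.17). Of 31 GABA and glutamate receptor genes, 30 were higher at ZT14, 2 of them with unadjusted p under 0.05, and the median was 0.48. Of 30 potassium channel genes, 22 were higher, 2 with unadjusted p under 0.05 (Kcna4, 1.38, and Kcnj3, 1.15), and the median was 0.29. Of 25 calcium, sodium and HCN channel genes, 21 were higher, 3 with unadjusted p under 0.05, and the median was 0.38. Of all genes, 55.2% were higher and 3.49% were higher with unadjusted p under 0.05. With the length trend removed, these medians were 0.13, 0.00 and 0.13.

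Genes that respond to activity and to glucocorticoids had positive medians. Of all genes, 55.2% were higher at ZT14 and 3.49% were higher with unadjusted p under 0.05. Of 20 immediate early genes, 18 were higher at ZT14 and 1 had unadjusted p under 0.05, which is near that share, with a median of 0.62. That gene, Fosl2, a partner of JUN in the AP-1 complex, had 63.0, 525, 233, 165 and 987 normalised counts at ZT14 and 167, 58.6, 43.6, 151 and 32.5 at ZT2. The first ZT14 library lay within the ZT2 range, and the difference was 1.83 ± 0.705 (adjusted p = 0.531), beside 2.30 in the sorted cells (adjusted p = 0.0369, limma).

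Of 16 glucocorticoid response genes, 13 were higher, 3 with unadjusted p under 0.05, against 55.2% and 3.49% of all genes, and the median was 0.73. Of these 3, Per1 is also counted in the core clock list. Among them Sgk1, a kinase gene that glucocorticoids switch on, had 1372, 2710.5, 5173, 4895 and 2385 at ZT14 and 2139, 862, 3357, 472 and 836 at ZT2, a difference of 1.30 ± 0.531. ZT14 replicate 1 was the lowest of its group and ZT2 replicate 3 the highest of its own. Both list medians were above 0 in all 27 other settings, at 0.20 to 1.08 for immediate early genes and 0.47 to 1.17 for glucocorticoid response. With the length trend removed they were 0.72 and 0.75.

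Metabolic lists lay close to the median of all genes. Glycolysis had a median of -0.05, fatty acid oxidation -0.09, cholesterol synthesis 0.21, autophagy and lysosome -0.01, leptin and JAK-STAT signalling 0.10, and insulin, FoxO and AMPK signalling 0.22. In the last of these lists 17 of 21 genes were higher, 3 with unadjusted p under 0.05, among them Prkaa1, a catalytic subunit of AMPK (1.18 ± 0.445). Of 9 metallothionein and zinc genes, 6 were higher, 2 with unadjusted p under 0.05 (the zinc transporter genes Slc39a10, 0.95 ± 0.286, and Slc39a14, 1.06 ± 0.454), and 3 were lower, 1 with unadjusted p under 0.05 (the metallothionein Mt3, -2.20 ± 0.981). None passed after adjustment with limma, DESeq2 called 1 higher and 1 lower, and Mt3 was highest in ZT2 replicate 3.

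Markers of cell types outside the labelled one were uneven between libraries. No astrocyte, oligodendrocyte, precursor, tanycyte, microglia or endothelial marker had an unadjusted p under 0.05 (0 of 62 genes tested). Summed microglia markers had 1964 to 11557 normalised counts at ZT14 and 1672 to 88448 at ZT2, the highest being ZT2 replicate 3. Summed endothelial and mural markers had 4391 to 122373 at ZT14 and 5774 to 57407 at ZT2, the highest being ZT14 replicate 3. Summed astrocyte markers had 26590 to 122646 at ZT14 and 18879 to 393652 at ZT2. The haemoglobin gene Hba-a1 was listed at 0 in all 10. Alas2, the only erythroid marker that could be tested, was above 0 in all 10. It had 119 to 828 normalised counts at ZT14 and 76.0 to 857 at ZT2, and was highest in replicate 3 at both hours.

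The difference between the hours was then set against that in ad libitum fed mice of the same genotype. In ad libitum RiboTag libraries 0 of 15444 genes passed (0.0%), and 92 had unadjusted p under 0.05 (0.596%). The spread was shared with the fasted libraries, so that this share and the 8.94% of fasted libraries do not reflect each state's own spread. For the difference of differences, fasted minus ad libitum, 0 genes passed (0.0%), and 252 had unadjusted p under 0.05 (1.63%, limma), while edgeR also called 0 genes. The potassium channel gene Kcna4 differed by 1.38 between the hours in fasted libraries and by -1.08 in ad libitum ones, a difference of 2.46 ± 0.741 (unadjusted p = 0.0039). Tmc4 gave -1.84 in fasted and 2.20 in ad libitum libraries, a difference of -4.05 ± 1.00. In fasted libraries its 5.25 to 60.8 normalised counts at ZT14 lay under its 69.0 to 92.7 at ZT2. Tmsb10 and Resp18 gave -2.31 and -2.48, and Smad4, which encodes a transducer of TGF-beta signals, 1.40. For all of these the adjusted p was 1.

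Against the fasted sorted cells, 1 of 16238 genes passed the test of the difference between preparations (0.00616%), and 1115 had unadjusted p under 0.05 (6.87%). The gene that passed was Tmigd1, with a difference of -5.24 ± 0.94 (adjusted p = 0.019, limma). It had 0, 1.27, 0, 3.04 and 0 normalised counts in fasted RiboTag at ZT14 and 2.72, 9.33, 52.3, 9.41 and 16.3 at ZT2, whereas the sorted cells had a median of 6.85 at ZT14 and of 0 at ZT2. The levels were a few counts in most libraries. Without any 1 of ZT14 replicates 1, 3 and 5 or ZT2 replicates 3 and 5 the adjusted p was between 0.0647 and 0.0959, and the call was lost. Among genes that did not pass, Stac2 differed by 3.46 ± 0.875 and Rev3l by 1.66 ± 0.443 (adjusted p = 0.571 for both).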

How the data were processed

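RNA of AGRP-Cre;RiboTag immunoprecipitates was amplified (SMART-seq v4) and made into Nextera XT libraries, per the labels' protocols. The submitters' processing notes name the mm10 build, the aligner STAR 2.5.1, the counter featureCounts of Subread, and DESeq and DESeq2 under R 3.5.1, but not their settings; the strand setting is not given in the sources used here. The deposited table (23337 genes, 80 libraries) holds signal, in the form of normalised counts. Low values were whole multiples of 1 step in each fasted RiboTag library, which held for 100% of these low values (tolerance 0.1). Higher values were divided by the same step and rounded to whole reads without this check. In 1 of the 33 NPY-GFP libraries only 14.6% of low values were whole multiples, and that library was not used in the count tests.

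Differences were tested with limma 3.58.1 (limma-trend, R 4.3.3) on log2(value + 1), over the 17 RiboTag libraries for time of day, with a value of at least 10 in 3 libraries as the filter and Benjamini-Hochberg adjustment at 0.05. The comparison with sorted cells was fitted over RiboTag and NPY-GFP libraries together. The scale understates differences of low genes. edgeR 4.0.16 and DESeq2 1.42.0 were run on the recovered reads as alternatives. DESeq2 gave no adjusted p for 193 genes of the main comparison. Figures were drawn with matplotlib 3.10.9 and exact tests run with scipy 1.17.1 in Python 3.11.15, and the fits were tested on simulated data. Symbols were matched to GENCODE M21 for lengths (20929 directly, 1903 by an older symbol, 505 not).

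The libraries, the 35 gene lists (772 of 780 genes in the table) and the rule for named genes were chosen with earlier results of these data known. That rule took the 10 genes of smallest p in each direction (5 in the tests of differences) with a mean log2 value of at least 5, all clock genes, Agrp, Npy, Lepr and Socs3, and up to 2 genes per other list, and 1 gene that it names is not reported here. The genes of the pituitary, Zfp458, Ceacam10, Npy1r, Mat2a, Prkx, Cartpt, Mt3 and the sets of libraries left out were picked after their values were seen.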

Additional observations from a re-analysis of the deposited data

Results flagged for a closer look

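In 8 of the 168 groups of 5 values checked, 1 library lay far from the other 4 by Dixon's criterion, which chance alone meets in about 1 group in 20. High values were those of Gh in ZT14 replicate 4 (353 normalised counts) and of Rpl35a in ZT14 replicate 3 (1031), and the number of genes above 0 in ZT2 replicate 5 (17378). Low values were those of Fkbp11 in ZT14 replicate 4 (71.4 normalised counts), Kcnj3 in ZT14 replicate 3 (60.1), Irs1 in ZT2 replicate 4 (3.76), and Slc39a10 and Prkx in ZT14 replicate 1 (429 and 84.0). Tmigd1 was set apart by a difference between groups, since its ZT14 minus ZT2 difference was lower in fasted RiboTag than in fasted sorted cells (-5.24, adjusted p = 0.019, limma).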

How the results depend on the processing

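Of 80 genes followed in fasted RiboTag through every setting, which include further list members besides genes of the text, 76 kept their sign in all settings run. Those that did not were Per3 (-0.087 without ZT2 replicates 2 and 4, and -0.098 with the length trend removed), Gm129 (-0.099 without ZT2 replicates 2 and 4), Cry1 (-0.11 without the 3 least similar libraries and -0.28 without all 5 libraries) and Nr1d1 (-0.025 to 0.45 with 1 library left out at a time). The cause was not tested. The genes called between the hours numbered 0 in the main test and 0 in a fit of only the 10 fasted libraries. In that fit 651 genes had unadjusted p under 0.05, against 1381 in the main test. The calls numbered 1 with library weights (Tmsb10), 529 with DESeq2, 305 with the spread of all 50 libraries, 1 without the 3 least similar libraries, 2 without the libraries labelled replicate 1, 141 without all 5 of these, and 0 to 3 with 1 library left out at a time, the 3 without ZT2 replicate 1. For fasted minus ad libitum RiboTag, 1 gene was called by DESeq2 (Prl) and 1 without the 5 libraries (Nr1d2), against 0 in every other setting. Nr1d2 was among the genes by which the libraries labelled replicate 1 were picked, so that its call carries no test. Prl was high only in ZT2 replicates 2 and 4 of the fasted libraries (17799 and 20339 normalised counts). For fasted RiboTag minus sorted cells, 1 gene was called in the main test, 0 with a filter of 50 in 3 libraries, 2 with quantile normalization (Tmigd1 and Sag), 21 with library weights, 256 with edgeR and 433 with DESeq2. Without the 3 least similar libraries the count was 2 (Gh and Prl), without the libraries labelled replicate 1 it was 2 (Rev3l and Tmigd1), without all 5 it was 11, without the pair with high pituitary genes it was 161, and with 1 library left out at a time it was 0 to 2. With the replicate number as a block, 0 genes were called between the hours, 0 for fasted minus ad libitum and 0 for RiboTag minus sorted cells. The labels do not say that the numbers pair libraries, and the deviations of same-numbered libraries correlated at 0.0486, 0.256, 0.456, -0.00187 and -0.00269 for numbers 1 to 5. With 5 libraries in each group, the median 95% confidence interval reached 0.975 to each side.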
